A study of Mus musculus with 12 samples.

Results

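Ganciclovir (GCV) is a nucleoside analog that viral thymidine kinases turn into a toxic form, and the p16-3MR mouse carries such a kinase under the regulatory region of p16Ink4a. p16Ink4a, a product of Cdkn2a, is a cell cycle inhibitor that marks senescent cells, which stay alive without dividing and secrete cytokines, chemokines and proteases known as the senescence-associated secretory phenotype (SASP). The comparison described here asked what GCV does to the retina of the eye that received no pressure. It held 6 of the 12 RNA-seq libraries of the study, 3 ctrl-GCV retinas from mice 1, 2 and 5 and 3 ctrl retinas from mice 3, 4 and 6, chosen by their labels.

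All mice were p16-3MR mice of 12 to 16 weeks, whose transgene also encodes Renilla luciferase and a red fluorescent protein. In each mouse the intraocular pressure (IOP) of one eye was raised to 85 to 90 mmHg for 60 min, and the ctrl or ctrl-GCV retina is that of the other eye, so the uninjured retinas came from animals with an injured fellow eye. Mice 1, 2 and 5 received GCV at 25 mg/kg daily for 3 days and mice 3, 4 and 6 received sham injections. No wild-type mouse with GCV was analysed here, so an effect of the drug itself and an effect of losing transgene-expressing cells cannot be told apart. The values are FPKM (fragments per kilobase of transcript, scaled to the size of the library), and differences are ctrl-GCV minus ctrl on the log2(FPKM + 1) scale, which understates differences of genes at low levels.

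The 6 libraries held an estimated 6820000 to 9050000 fragments, lower in the ctrl-GCV retinas (6820000 to 7660000) than in the ctrl retinas (7730000 to 9050000), and 16044 to 16396 genes were above 0 in each. Pearson's r of log2 values was 0.9854 to 0.9905 within ctrl, 0.9854 to 0.9896 within ctrl-GCV and 0.9834 to 0.9915 between the groups, so libraries of different groups were about as alike as libraries of the same group. Libraries that stood apart did so in tissue markers rather than in depth. The ctrl-GCV retina of mouse 1 had by far the highest lens markers. The ctrl-GCV retina of mouse 2 had the highest ganglion cell markers and the lowest rod markers, and the ctrl retina of mouse 6 had the highest glial stress and pigment cell markers. Medians of the cell type and tissue lists are therefore given with their values or range when single retinas were left out.

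GCV left the uninjured retina with almost no gene that passed the test. Of 17843 genes, 1 passed an adjusted p of 0.05 (0.0056%). It was the transporter regulator Rsc1a1, which fell, and no gene was called higher (0%). At an unadjusted p under 0.05 there were 647 genes higher (3.63%) and 500 lower (2.8%), together 1147 (6.43%). Without the ctrl retina of mouse 3 these were 321 higher and 327 lower, 648 in all, and with the spread from all 12 libraries 136 higher and 159 lower. The fold changes were centred on 0, with a median of 0.005, and 51.9% of genes were above 0 and 48.1% below. The plot of fold change against level shows a band around 0 at every level, with the lens crystallin Cryaa the farthest above it.

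**Figure D1:**
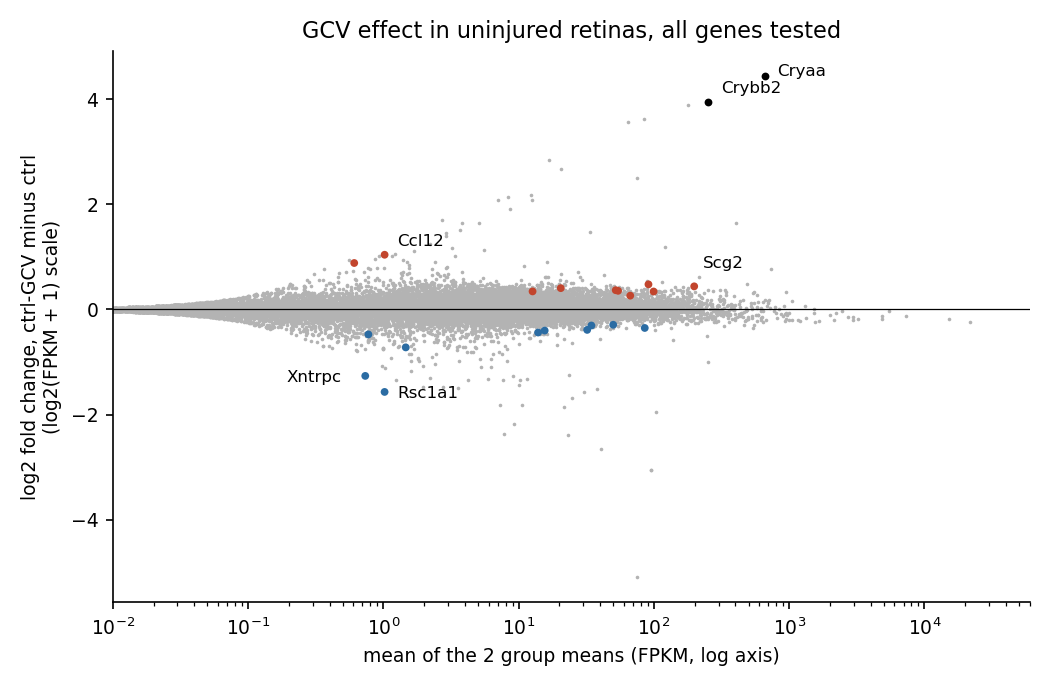
Each point is 1 of the 17843 genes tested, with the mean of the ctrl and ctrl-GCV group means in FPKM on a log x axis (genes under 0.01 FPKM are left of the axis) and the log2 fold change, ctrl-GCV minus ctrl, on the y axis. Red and blue points are the genes of smallest p in each direction and black points are Cryaa and Crybb2. Rsc1a1, at a log2 fold change of -1.57, is the only gene called, and Cryaa is at 4.44 (2.21 without the ctrl-GCV retina of mouse 1).

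The libraries could show sizeable differences. Among the 12566 genes that averaged 1 FPKM or more, the SD of log2 values had a median of 0.118 in ctrl and 0.14 in ctrl-GCV retinas, and the 95% interval of the fold change had a median reach of 0.284 to each side. For 12137 of these genes (96.6%) that interval lay within 1 of 0 on the log2(FPKM + 1) scale, on which a doubling of a gene at a few FPKM is less than 1. Between 1 and 5 FPKM the share was 91.8%, and from 20 to 100 FPKM it was 98.8%.

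Rsc1a1 encodes a regulatory protein of sodium-glucose transporters. It is an intronless gene, and its coding sequence starts at chr4:141685570-141685599 on the minus strand of mm10. The first bases are shown because they mark where the counted gene begins inside another gene, with the start codon in capitals.
Rsc1a1: ATGtcatcattgccgacttcagatgggttt
The whole gene (chr4:141683851-141685599) lies within the last exon of Ddi2, a retroviral-type aspartic protease gene, on the same strand. Its 1749 bases are found at positions 1503 to 3251 of both annotated Ddi2 transcripts, of 9553 and 3539 bases, so a fragment from this stretch cannot be assigned to either gene by its sequence.

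Rsc1a1 was at 1.89, 2.41 and 1.77 FPKM in the ctrl retinas and at 0.00638, 0.0379 and 0.000492 FPKM in the ctrl-GCV retinas. The groups did not overlap, and all 3 GCV values were close to 0. The log2 fold change was -1.57 (SE 0.11, 95% interval -1.82 to -1.32, adjusted p = 0.0307). By the estimated depth these values stand for 29.02, 43.3 and 30.5 fragments in the ctrl retinas and for less than 1 fragment in each ctrl-GCV retina. Ddi2, which shares the sequence, was at 10.4, 12.1 and 12.95 FPKM in ctrl and at 9.16, 11.4 and 12.6 FPKM in ctrl-GCV retinas, with overlapping groups. In the injured eyes of the same mice the groups overlapped, with Rsc1a1 at 6.05, 0.0503 and 1.21 FPKM in IOP and 1.88, 3.24 and 1.54 FPKM in IOP-GCV retinas, where an IOP retina without GCV was near 0. The call was lost when genes under 1 FPKM were left out (adjusted p = 0.12), with the spread estimated from all 12 libraries (adjusted p = 1), and when any one of mice 1, 2, 3, 5 and 6 was left out (adjusted p = 0.103 to 0.577). Its log2 fold change was -1.63 to -1.48 when single retinas were left out, and -4.21 with 0.1 in place of 1 added before the log. The part of read assignment between Rsc1a1 and Ddi2 in this result was not tested.

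Xntrpc, next in order of p, had a like pattern. It was at 1.87, 0.907 and 1.60 FPKM in ctrl and at 0.0012, 0.0167 and 0.00794 FPKM in ctrl-GCV retinas, and did not pass the test (log2 fold change -1.26, adjusted p = 0.672). Xntrpc shares exons on the same strand with Trpc2, a channel gene of pheromone-sensing neurons, and with Xndc1. Trpc2 was at 0.000199, 0.89 and 0 FPKM in ctrl and at 1.21, 1.41 and 1.64 FPKM in ctrl-GCV retinas, opposite to Xntrpc. In the injured eyes Xntrpc was at 0.92, 2.05 and 0.911 FPKM without GCV and at 1.54, 1.98 and 1.00 FPKM with it. The GCV values near 0 were thus seen in the uninjured eyes of mice 1, 2 and 5 and not in their injured eyes. The plot of the genes of smallest p shows both genes apart from the others, whose fold changes were smaller.

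The 10 genes of smallest p that were higher with GCV, had no overlap between groups by the rule that chose them, as had 7.35% of all genes that reached the same level (1 FPKM as the mean of either group) in that direction. None passed the test (adjusted p = 0.758). Fez1, an adaptor of kinesin transport in axons, was at 44.6, 47.8 and 44.1 FPKM in ctrl and at 59.6, 60.4 and 56.5 FPKM in ctrl-GCV retinas. Every GCV value was above every ctrl value, with a log2 fold change of 0.37 (SE 0.06). Stmn1, a protein that destabilizes microtubules, was at 67.3, 80.9 and 80.3 FPKM against 106, 110 and 102 FPKM with GCV. Scg2, a secretogranin of neuropeptide vesicles, was at 169, 183 and 153 FPKM against 213, 242 and 230 FPKM. These 2 genes differed by log2 fold changes of 0.48 and 0.44. Atxn10 (0.34), B3galnt1 (0.40), Hsd17b12 (0.26), Tram1l1 (0.34) and the actin-binding tropomyosin Tpm1 (0.35) had log2 fold changes of similar size, and Ctxn2, at 0, 0 and 0.398 FPKM in ctrl and 1.22, 1.36 and 0.674 FPKM in ctrl-GCV retinas, had 0.88.

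Ccl12, a chemokine that attracts monocytes and a SASP gene of the study, had the largest log2 fold change among them, followed by Ctxn2. It was at 0.703, 0 and 0.31 FPKM in ctrl and at 2.12, 1.41 and 1.58 FPKM in ctrl-GCV retinas, a log2 fold change of 1.04 (SE 0.21, adjusted p = 0.758). In the injured eyes its level was higher in every retina and the direction was opposite, with 6.75, 12.1 and 13.1 FPKM in IOP and 4.38, 11.3 and 3.76 FPKM in IOP-GCV retinas. The difference between the effects in uninjured and injured eyes was 1.76 on the log2 scale (SE 0.53) and was not called (adjusted p = 0.997).

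The 10 genes lower with GCV were chosen by the same rule (6.2% of all genes at this level did not overlap in that direction), and none but Rsc1a1 passed the test. Rdh8, a photoreceptor enzyme that reduces all-trans retinal in the visual cycle, was at 102, 91.7 and 94.3 FPKM in ctrl and at 72.5, 74.7 and 77.6 FPKM in ctrl-GCV retinas. Zfp36l2, which binds AU-rich elements and promotes mRNA decay, was at 35.4, 36.9 and 37.1 FPKM against 25.5, 26.9 and 30.6 FPKM. Nradd, a death-domain relative of the neurotrophin receptor, was at 1.81, 2.20 and 2.18 FPKM against 0.661, 1.04 and 0.876 FPKM. Their log2 fold changes were -0.35, -0.39 and -0.72. Tgfbr3l (-0.44), Grhl3 (-0.48), the guidance factor Sema3f (-0.31), the translocon subunit Sec61b (-0.40) and Pitpnm3 (-0.29) completed the 10.

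**Figure D2:**
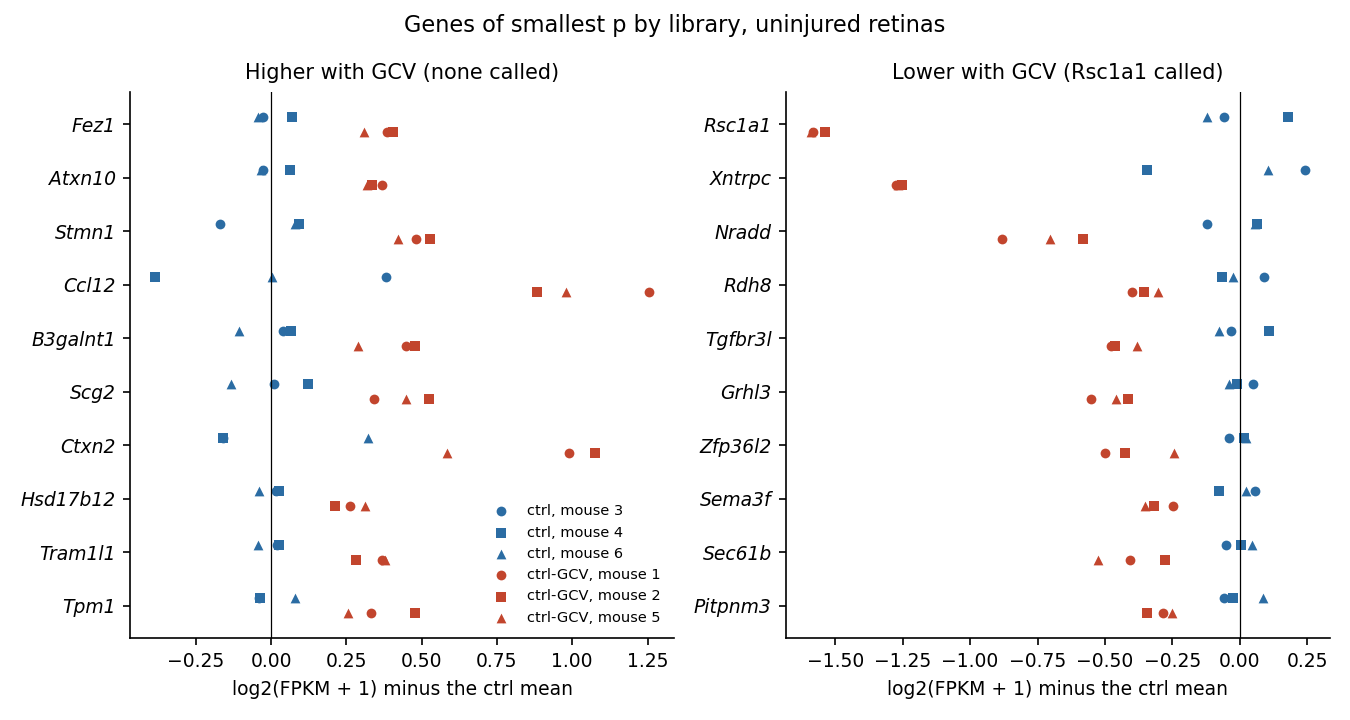
The 10 genes of smallest unadjusted p in each direction, with log2(FPKM + 1) minus the ctrl mean on the x axis and 1 point per retina (blue ctrl, red ctrl-GCV, shapes for mice). Groups do not overlap because non-overlap was a condition for being shown, and only Rsc1a1, at -1.57, passed the test.

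The injured eyes came from the same mice, so the 2 comparisons share animals, and the IOP retina of mouse 6 was the shallowest library of the 12, at an estimated 3990000 fragments and 14844 genes above 0. Of the 10 genes higher with GCV in uninjured retinas, 7 were also higher with GCV in injured retinas, and of the 10 lower, 3 were also lower. Over all 12770 genes that reached that level, 55.5% had the same sign in both eyes, and it was 60.2% of those with an unadjusted p under 0.05 in uninjured retinas. In none of the 20 genes did the injured groups separate in the same direction. The share of all genes whose injured groups separated was not counted, so nothing is read from this. The 2 effects were then compared directly in all 12 libraries, with the 2 eyes of a mouse taken as independent. No gene of 18509 was called by limma (0%), although 358 (1.93%) had an unadjusted p under 0.05. The smallest adjusted p was 0.997. Leaving out single retinas gave 0 to 2 called genes, with 0 without the IOP retina of mouse 6 and 2 without the IOP-GCV retina of mouse 1. A fit of the difference between the eyes of each mouse also called 0 genes. With all 12 libraries, a difference between the GCV effects of uninjured and injured retinas was thus not detected for any gene.

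The target of the transgene was itself near the limit of detection. Cdkn2a was at 0.189, 0.16 and 0.301 FPKM in ctrl and at 0.345, 0.171 and 0 FPKM in ctrl-GCV retinas, with overlapping groups (log2 fold change -0.06, 95% interval -0.33 to 0.21). The table has 1 value for Cdkn2a, which also encodes Arf from shared exons, so p16Ink4a alone was not measured. Of the 26 senescence genes, 10 were higher and 16 lower with GCV, none was called, and the median was -0.054, which was -0.006 without the ctrl retina of mouse 6. Glb1, the lysosomal galactosidase behind the senescence stain, was at 3.01, 4.33 and 4.73 FPKM in ctrl and at 5.52, 5.24 and 6.01 FPKM in ctrl-GCV retinas (log2 fold change 0.41, adjusted p = 0.758). Hmgb2, a chromatin protein lost in many senescent cells, was at 5.70, 4.43 and 3.76 FPKM against 2.89, 3.60 and 3.52 FPKM (-0.37, adjusted p = 0.758). In both genes the groups did not overlap, and over all 17843 genes tested 6.24% did not overlap and were higher and 5.33% did not overlap and were lower.

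The SASP list of the study held 56 genes, of which 49 were tested. It was used there on these same samples and is no independent evidence. None was called, 28 were higher and 21 lower, and the median log2 fold change was 0.013, against 0.005 for all genes, and was 0.082 with a minimum of 1 FPKM in 3 libraries. At an unadjusted p under 0.05 there were 3 of the 49 members higher and 1 lower, against 3.63% higher and 2.8% lower of all genes tested. Ccl12, described above, was among them. Il15, a cytokine for lymphocytes, was at 1.38, 1.48 and 1.33 FPKM in ctrl and at 2.61, 2.21 and 2.10 FPKM in ctrl-GCV retinas (log2 fold change 0.46, adjusted p = 0.758). Il1a was below 0.5 FPKM in every retina, at 0.151, 0.121 and 0.0747 FPKM against 0.293, 0.287 and 0.471 FPKM. Timp2, a metalloproteinase inhibitor, was at 26.9, 30.6 and 30.6 FPKM against 33.3, 38.8 and 31.3 FPKM (0.22). The member lower at an unadjusted p under 0.05 was Igfbp4, which binds insulin-like growth factors and was named after its values were seen, at 20.3, 16.9 and 23.6 FPKM against 16.8, 16.5 and 14.6 FPKM (-0.32). The abundant protease Ctsb was at 184, 158 and 187 FPKM against 182, 167 and 164 FPKM (-0.04), with overlapping groups.

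The apoptosis and extracellular matrix lists of the study, also used there on these samples, had no called member. Of 75 apoptosis genes tested, 42 were higher and 33 lower with a median of 0.011, and of 77 matrix genes 42 were higher and 35 lower with a median of 0.009. The chaperone Hsp90ab1 was at 287, 297 and 328 FPKM in ctrl and at 369, 414 and 360 FPKM in ctrl-GCV retinas (log2 fold change 0.33), and Tnfsf12, the cytokine TWEAK, was at 198, 168 and 198 FPKM against 168, 147 and 152 FPKM (-0.27). Among matrix and adhesion genes, the catenin Ctnna2 was at 9.92, 13.04 and 12.5 FPKM against 15.9, 17.5 and 16.6 FPKM (0.47), and the integrin Itga4 at 7.75, 7.54 and 7.61 FPKM against 5.86, 5.71 and 6.71 FPKM (-0.29). The adjusted p was 0.758 for each of these 4 genes.

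Genes for handling nucleosides and GCV itself were examined because host kinases, transporters and polymerases act on nucleoside drugs. Of 29 tested, 10 were higher and 19 lower, with a median of -0.027, and none was called. Polg2, the accessory subunit of the mitochondrial DNA polymerase, was at 26.6, 27.4 and 24.5 FPKM in ctrl and at 22.04, 20.6 and 21.9 FPKM in ctrl-GCV retinas (log2 fold change -0.27, SE 0.07). Adk, adenosine kinase, was at 19.3, 21.7 and 19.4 FPKM against 22.1, 26.04 and 24.1 FPKM (0.25, SE 0.08). The nucleoside transporter Slc29a2 was at 17.8, 16.4 and 17.8 FPKM against 15.6, 14.8 and 14.7 FPKM (-0.19, SE 0.07). The groups of each of the 3 genes did not overlap, as in 4 of the 29 members and 11.6% of all genes, and the adjusted p was 0.758 for each. Guk1, the guanylate kinase that phosphorylates GCV monophosphate, was at 336, 305 and 324 FPKM against 327, 272 and 299 FPKM, with overlapping groups.

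Lists of stress and signalling genes gave medians near 0. Of 34 p53 and DNA damage response genes, 14 were higher and 20 lower with a median of -0.035, of 30 proliferation genes 12 were higher and 18 lower with a median of -0.038, and of 42 interferon response genes 25 were higher and 17 lower with a median of 0.019, and none was called. Phlda3, a p53 target that inhibits Akt, was at 3.07, 4.22 and 4.58 FPKM in ctrl and at 5.39, 5.99 and 5.60 FPKM in ctrl-GCV retinas (log2 fold change 0.44), and Trp53inp1, a p53-induced nuclear protein, at 7.62, 7.93 and 7.12 FPKM against 6.45, 6.55 and 6.32 FPKM (-0.20). Spc25, a kinetochore subunit that is high in this retina, was at 55.2, 63.3 and 66.3 FPKM against 70.1, 74.1 and 84.3 FPKM (0.30). The checkpoint kinase Bub1b was at 12.8, 13.3 and 15.6 FPKM against 11.1, 10.9 and 11.8 FPKM (-0.28), and the centromere histone Cenpa at 1.80, 1.54 and 1.20 FPKM against 0.772, 1.11 and 0.873 FPKM (-0.39). Of the 30 proliferation genes 1 was higher and 4 lower without overlap, against 6.24% higher and 5.33% lower of all genes tested. Irf7, an interferon regulatory factor, was at 9.20, 7.51 and 11.7 FPKM against 7.27, 6.93 and 7.48 FPKM (-0.33), while Zbp1, a nucleic acid sensor, was at 0.413, 0.12 and 0.187 FPKM against 0.218, 0.635 and 0.944 FPKM (0.35). Immediate early genes (13 of 24 higher, median 0.006), clock genes (11 of 19, 0.041), glucocorticoid response genes (7 of 14, -0.013), hypoxia genes (9 of 16, 0.022), nuclear oxidative phosphorylation genes (18 of 26, 0.027), heat shock chaperones (11 of 15, 0.064) and cholesterol synthesis genes (15 of 19, 0.056) had no called member. In all, 21 of the 33 lists had a median within 0.1 of 0 (17 with 0.1 as the pseudocount). The medians of the lists of this and the preceding 4 paragraphs lay between -0.073 and 0.111 when single retinas were left out.

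**Figure D3:**
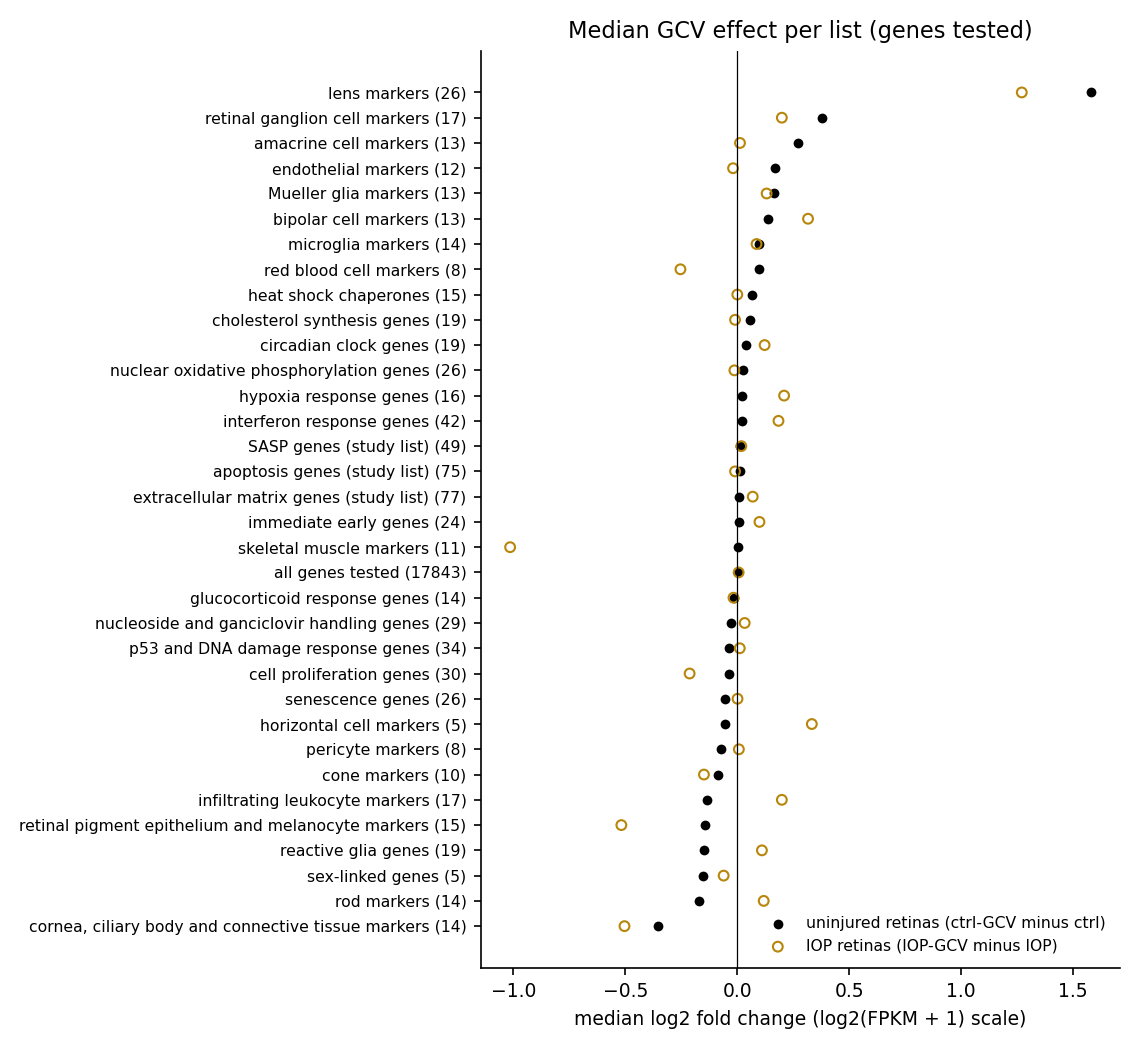
Median log2 fold change of each list and of all genes tested, with the number of genes tested in parentheses, in uninjured retinas (black, ctrl-GCV minus ctrl) and in injured retinas (open, IOP-GCV minus IOP). Lens markers are at 1.579, ganglion cell markers at 0.377 and rod markers at -0.169 in uninjured retinas, while the SASP, apoptosis and extracellular matrix lists sit between 0.009 and 0.013.

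The lists furthest from 0 were those of cell types and of tissues around the retina. In bulk RNA, more cells of a type and more RNA per cell cannot be told apart. The retina is layered, with rods as the most abundant cells, bipolar, horizontal and amacrine cells between, and ganglion cells, whose axons form the optic nerve, at the inner surface, spanned by Mueller glia. Rod genes, which define this tissue, were high in all 6 libraries, with a summed level of 62500 to 78900 FPKM over the 14 rod markers in ctrl and 55900 to 68600 FPKM in ctrl-GCV retinas.

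All 17 ganglion cell markers were higher with GCV, against 51.9% of all genes, with log2 fold changes from 0.12 to 0.54 and a median of 0.377, and none was called (smallest adjusted p = 0.758). Sncg, gamma-synuclein, was at 346, 407 and 451 FPKM in ctrl and at 497, 700 and 510 FPKM in ctrl-GCV retinas, a log2 fold change of 0.49 (SE 0.17). Chrna6, a nicotinic receptor subunit, was at 38.2, 46.5 and 41.6 FPKM against 45.9, 75.2 and 54.4 FPKM (0.44), and the surface protein Thy1 at 188, 219 and 235 FPKM against 223, 394 and 242 FPKM (0.38). Mouse 2 was the highest of the 6 retinas for each of these 3 genes. Six6, an eye field transcription factor, was at 18.3, 21.6 and 17.8 FPKM against 22.7, 22.6 and 21.97 FPKM (0.22), and Pou4f1, the Brn3a transcription factor, at 9.07, 9.16 and 12.8 FPKM against 11.0, 19.0 and 11.9 FPKM (0.38).

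The ganglion cell list as a whole was uneven across mice. Averaged over its genes, with each gene centred on its mean over the 6 retinas, it was -0.356, -0.131 and -0.048 in ctrl retinas and -0.138, 0.608 and 0.065 in ctrl-GCV retinas, so the groups overlapped. Without the ctrl-GCV retina of mouse 2 the median of the list was 0.164 and 14 of 17 genes were higher. In the injured eyes 13 of the 17 were higher with GCV, with a median of 0.199.

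Amacrine markers had a similar pattern, with 11 of 13 higher and a median of 0.269, which was 0.114 without the ctrl-GCV retina of mouse 2. Gad1, which makes GABA, was at 48.5, 63.6 and 53.7 FPKM in ctrl and at 65.8, 80.9 and 73.6 FPKM in ctrl-GCV retinas (log2 fold change 0.41, SE 0.12). Calb2, calretinin, was at 437, 485 and 510 FPKM against 515, 839 and 504 FPKM (0.34), and the glycine transporter Slc6a9 at 52.2, 56.1 and 52.4 FPKM against 50.4, 55.1 and 48.1 FPKM (-0.07). Bipolar markers were higher in 9 of 13 with a median of 0.139, which was -0.007 without the ctrl retina of mouse 6, 0.066 without the ctrl-GCV retina of mouse 1 and 0.251 without the ctrl retina of mouse 4. Of 5 horizontal cell markers 2 were higher and 3 lower, with a median of -0.055 that ranged from -0.096 (without ctrl mouse 6) to 0.082 (without ctrl mouse 4). Calb1, calbindin, was at 20.4, 22.9 and 18.9 FPKM against 25.4, 27.0 and 24.1 FPKM (0.29), and the transcription factor Onecut2 at 0.388, 0.44 and 0.485 FPKM against 0.321, 0.363 and 0.286 FPKM (-0.12). None of these genes was called.

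Mueller glia markers were higher in 11 of 13 with a median of 0.165, and the average over the list did not overlap between groups, as in 2 of the 33 lists (the other was lens markers) and in 11.6% of single genes. It was at -0.156, -0.008 and -0.061 in ctrl and at 0.1, 0.08 and 0.045 in ctrl-GCV retinas. The list median was 0.103 to 0.281 when single retinas were left out. Glul, the glutamine synthetase that clears glutamate, was at 820, 902 and 815 FPKM in ctrl and at 1119, 1018 and 1035 FPKM in ctrl-GCV retinas (log2 fold change 0.32, SE 0.12, adjusted p = 0.758). The glutamate transporter Slc1a3 was at 43.1, 49.2 and 40.3 FPKM against 53.2, 48.6 and 57.8 FPKM (0.26), and the carbonic anhydrase Car14 at 47.4, 51.1 and 42.6 FPKM against 56.2, 59.3 and 50.3 FPKM (0.23). Of the other abundant members, the lipid carrier Apoe was at 613, 498 and 856 FPKM against 589, 621 and 513 FPKM (-0.16), and the secreted protein Dkk3 at 240.4, 236 and 244 FPKM against 234, 265 and 244 FPKM (0.05), both with overlapping groups.

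Photoreceptor genes lay on the other side of 0. All 14 rod markers were lower with GCV, with log2 fold changes from -0.24 to -0.04 and a median of -0.169, and none was called or had an unadjusted p under 0.05. Gnat1, rod transducin, was at 18196, 14014 and 16101 FPKM in ctrl and at 17212, 12336 and 13465 FPKM in ctrl-GCV retinas, and the channel subunit Cngb1 at 804, 652 and 703 FPKM against 671, 588 and 618 FPKM. The ctrl retina of mouse 3 was the highest for both, and without it the median of the list was -0.079 with 2 of 14 genes higher, and without the ctrl-GCV retina of mouse 2 it was -0.107. After quantile normalization the median was -0.08, also with 2 of 14 higher. In the injured eyes 10 of the 14 were higher with GCV. Of 10 cone markers 8 were lower, with a median of -0.087, which ranged from -0.179 (without ctrl-GCV mouse 1) to 0.062 (without ctrl-GCV mouse 2). The short-wavelength opsin Opn1sw was at 335, 231 and 292 FPKM against 296, 213 and 123 FPKM (-0.51, SE 0.31, adjusted p = 0.774).

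**Figure D4:**
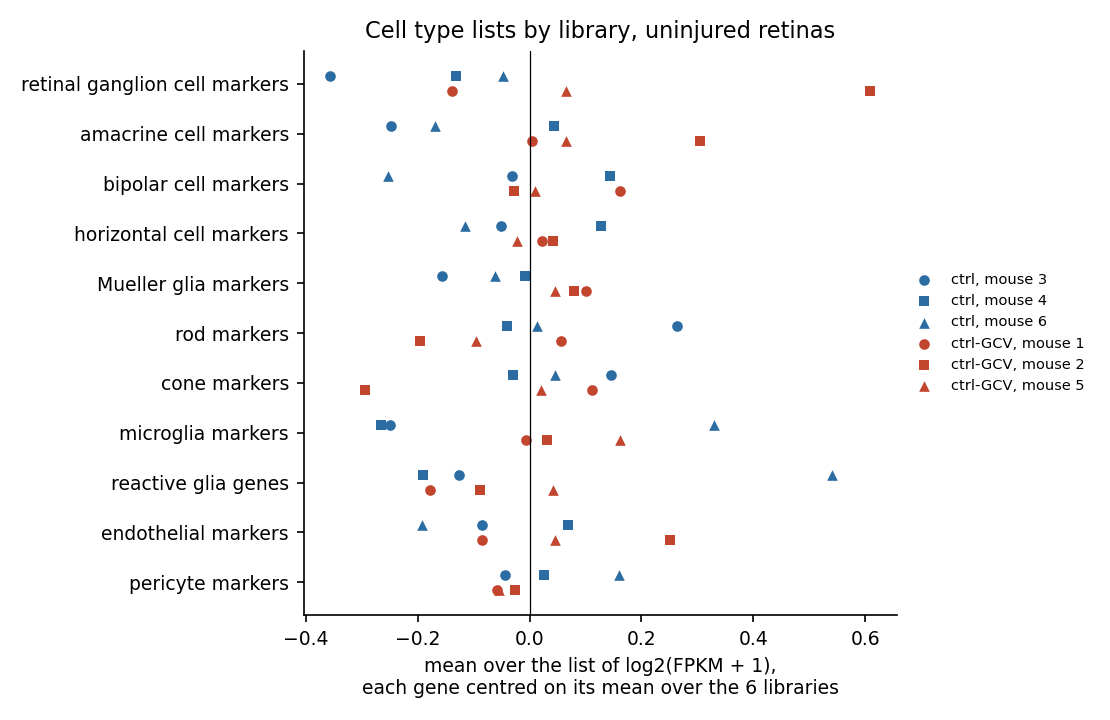
Mean over each cell type list of log2(FPKM + 1), with each gene centred on its mean over the 6 uninjured retinas, and 1 point per retina (blue ctrl, red ctrl-GCV, shapes for mice). The ctrl-GCV retina of mouse 2 is at 0.608 for ganglion cell markers and at -0.196 for rod markers, the ctrl retina of mouse 6 is at 0.54 for reactive glia genes, and the groups do not overlap for Mueller glia markers.

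No gene of microglia or reactive glia was called. Microglia markers were higher in 11 of 14 with a median of 0.097, which ranged from 0.002 (mouse 4 left out of ctrl) to 0.306 (mouse 6 left out of ctrl). Ctss, the lysosomal protease cathepsin S, was at 15.8, 17.7 and 27.2 FPKM in ctrl and at 28.2, 25.1 and 32.6 FPKM in ctrl-GCV retinas (log2 fold change 0.51, SE 0.20), and Aif1, the marker Iba1, at 1.64, 1.08 and 1.62 FPKM against 2.97, 1.47 and 2.05 FPKM (0.35), while the microglial lectin Siglech was at 1.10, 0.935 and 1.08 FPKM against 0.891, 0.873 and 0.848 FPKM (-0.12). Of 19 reactive glia genes 6 were higher, with a median of -0.148, which was 0.056 without the ctrl retina of mouse 6. The acute-phase protease inhibitor Serpina3n was at 12.3, 9.43 and 85.4 FPKM against 12.0, 11.3 and 18.9 FPKM, and mouse 6 held the value of 85.4 FPKM. Spp1, osteopontin, was at 12.999, 15.7 and 19.2 FPKM against 17.3, 29.2 and 26.8 FPKM (0.57), and the growth factor Fgf2 at 3.92, 2.70 and 5.21 FPKM against 1.24, 1.72 and 3.58 FPKM (-0.67). None was called. Endothelial markers were higher in 9 of 12 with a median of 0.17, which ranged from 0.078 (without ctrl-GCV mouse 2) to 0.286 (without ctrl-GCV mouse 1). Pericyte markers were lower in 7 of 8 with a median of -0.071, which ranged from -0.109 (without ctrl mouse 3) to -0.025 (without ctrl-GCV mouse 1), and was -0.032 without ctrl mouse 6. Of 17 infiltrating leukocyte markers tested 7 were higher, with a median of -0.135, which was 0.066 without the ctrl retina of mouse 6.

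Lens markers had the median farthest from 0 of the lists tested, and mouse 1 held by far the highest values. All 26 tested were higher with GCV (median 1.579), none was called, and the lens chaperone Cryaa was at 1.34, 14.1 and 13.8 FPKM in ctrl and at 3848, 25.1 and 52.5 FPKM in the ctrl-GCV retinas of mice 1, 2 and 5. Cryab was at 63.1, 69.9 and 96.5 FPKM against 2032, 78.8 and 83.8 FPKM, and Crygd at 0, 1.87 and 0.489 FPKM against 7.27, 4.17 and 2.49 FPKM. The summed level of the list was 83.9 to 154 FPKM in ctrl retinas, 193 and 241 FPKM in the ctrl-GCV retinas of mice 2 and 5, and 9640 FPKM in that of mouse 1. Without mouse 1 the median was 0.402 and 20 of 26 were higher. Averaged over the list, the retinas were at -1.264, -0.608 and -0.723 in ctrl and at 3.001, -0.203 and -0.204 in ctrl-GCV, with no overlap. In the injured eyes all 26 were higher with GCV, with a median of 1.271, but 14 of 26 with a median of 0.036 without the IOP retina of mouse 3 (left out after its values were seen), where Cryaa was at 32.6 FPKM against 1345 to 2700 FPKM in the other 5.

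Pigment and connective tissue genes varied in other retinas. The melanocyte enzyme genes Tyrp1 and Dct were at 10.2, 4.26 and 39.2 FPKM and at 21.8, 9.42 and 158 FPKM in ctrl, and at 5.89, 2.56 and 1.24 FPKM and 23.1, 8.92 and 5.90 FPKM in ctrl-GCV retinas. Mouse 6 was the highest for both. Ttr, transthyretin of the pigment epithelium, was at 67.4, 45.3 and 104 FPKM against 181, 132 and 10.2 FPKM. Of the 15 pigment cell markers 6 were higher with GCV, with a median of -0.146. Without the ctrl retina of mouse 6 the median was 0.119 with 8 higher, and without the ctrl-GCV retina of mouse 1 it was -0.64 with 0 higher. Of 14 cornea, ciliary body and connective tissue markers 2 were higher, with a median of -0.355 that ranged from -0.682 to -0.293 when single retinas were left out, and was -0.721 with 0.1 as the pseudocount. Optc, opticin of the vitreous, was at 54.7, 3.15 and 54.2 FPKM against 11.5, 3.72 and 3.53 FPKM. Red blood cell markers were higher in 7 of 8 (median 0.096), but in 3 of 8 (median -0.001) without the ctrl-GCV retina of mouse 2, and the median was 0.468 without that of mouse 5. Skeletal muscle markers were higher in 7 of 11 (median 0.005, range -0.027 to 0.014 with single retinas left out). The part of the amount of tissue around the retina in the differences of the cell type lists was not tested.

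**Figure D5:**
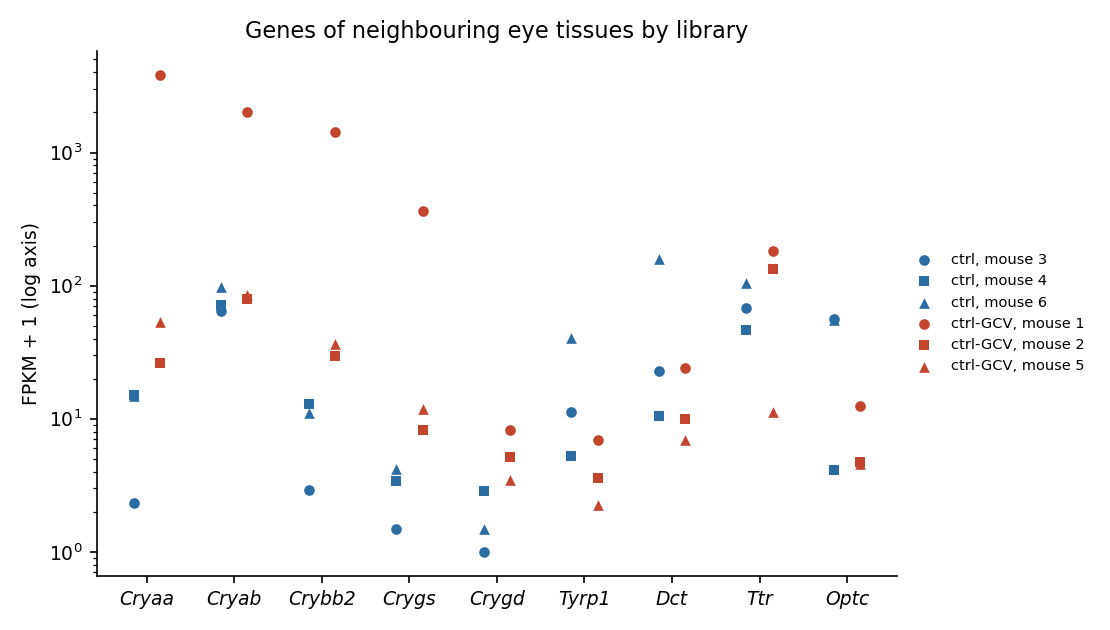
FPKM + 1 on a log axis for 5 crystallin genes, the melanocyte genes Tyrp1 and Dct, Ttr and Optc, with 1 point per uninjured retina (blue ctrl, red ctrl-GCV, shapes for mice). The ctrl-GCV retina of mouse 1 is far above the others for Cryaa (3848 FPKM), Cryab and Crybb2, and the ctrl retina of mouse 6 is the highest for Tyrp1 and Dct.

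Other genes named by the study were also within the spread or did not pass. Abl1, a tyrosine kinase, was at 9.05, 9.88 and 10.1 FPKM in ctrl and at 8.73, 8.37 and 8.57 FPKM in ctrl-GCV retinas (log2 fold change -0.16, SE 0.09, adjusted p = 0.764), with no overlap between the groups. Tbk1, a kinase of innate immune signalling, was at 14.2, 14.6 and 17.0 FPKM against 15.3, 13.6 and 14.4 FPKM (-0.07). Gapdh, a glycolytic enzyme, was at 5.12, 3.07 and 3.72 FPKM against 4.05, 4.69 and 4.07 FPKM (0.10), a low level for a gene with many near-identical copies in the mouse genome.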

How the data were processed

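RNA-seq libraries were made with a stranded mRNA kit from 1 ug of total RNA of each retina and read in pairs of 50 bases. The authors deposited 1 table of normalized values, taken here as FPKM by inference from the values. The submitters' processing notes name TopHat2, Bowtie2, Cufflinks, Cuffdiff and mm10, whereas the study's methods describe counting with HOMER over RefSeq exons. The 24340 rows included 27 with names turned into dates, none for mitochondrially encoded genes and 5831 at 0 in all 12 libraries. Depth was estimated from the steps between low values of genes with 1 RefSeq transcript, 354 to 396 values in each of the 6 libraries. It was chosen to bring these values near whole multiples. Within 0.15 of one lay 78.3 to 83.5% of them, which by this choice is no independent check. Groups came from the labels. The study's text names no test for these libraries.

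The 17843 genes above 0 in at least 1 of the 6 libraries were fitted with limma 3.58.1 (R 4.3.3) on log2(FPKM + 1) with a variance trend and Benjamini-Hochberg adjustment over all of them, unpaired, called at 0.05. The difference of effects used 12 libraries and 18509 genes, with the eyes of a mouse taken as independent. The fit was checked on simulated data. Other settings tried were 0.1 as the pseudocount, a minimum of 1 FPKM in 3 libraries, 2 other scalings, all libraries, array weights, no trend, the mouse as a block and leaving out libraries. The members and lists were chosen with earlier results of these data known, and p-values measure only the spread between 3 mice per group. Named were genes of the study, called genes completed to the 10 of smallest p per direction (at least 1 FPKM in a group, no overlap), for each list the 3 highest and the 3 of smallest p, and the 10 of largest SD. Ddi2 and Trpc2 were named after their values were seen, for the exons they share. Sequence and positions are from GENCODE M21 on mm10. In the 6 mice with both eyes, deviations from the group means had r of -0.117, 0.132, 0.207, 0.388, 0.166 and 0.0998 (mice 1 to 6). Values of a few genes that the naming rule selects are not reported here.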

Additional observations from a re-analysis of the deposited data

How the results depend on the processing

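The call of 1 gene became 0 calls with a filter of 1 FPKM in 3 libraries, and 0 calls with the spread from all 12 libraries, with or without the mouse as a block, and it was 1147 genes at an unadjusted p under 0.05. It stayed at 1 gene, Rsc1a1, under a pseudocount of 0.1, without the trend, with array weights, under both other scalings, at an adjusted p under 0.1 and with a minimum change of 2-fold. Leaving out single retinas gave 0 to 4 calls, 4 without the ctrl retina of mouse 4 (Rsc1a1, Xntrpc, Fmod and Mir719, all lower, the last 2 named after their values were seen) and 0 without any other. The difference of effects gave 0 calls, also when the difference between the eyes of each mouse was fitted (from which no stability is read). It gave 358 genes at an unadjusted p under 0.05, and 0 to 2 calls when single retinas were left out. These were Gm21949 without the ctrl retina of mouse 3, Hist1h4b without that of mouse 4, Kif16bos without the IOP retina of mouse 3, and Snora64 and Stfa2 without the IOP-GCV retina of mouse 1, named after their values were seen. Of the 94 genes compared across settings, 8 turned direction when single retinas were left out. Cdkn2a ranged from -0.17 to 0.046 (without ctrl-GCV mouse 5), Tbk1 from -0.12 to 0.0024 (without ctrl mouse 6), Gapdh from -0.030 (without ctrl mouse 4) to 0.26, Serpina3n from -1.21 to 0.32 (without ctrl mouse 6), Apoe from -0.34 to 0.051 and Ctsb from -0.12 to 0.0068 (both without ctrl mouse 6), Dkk3 from -0.0045 (without ctrl-GCV mouse 2) to 0.085, and Ttr from -0.84 to 0.20 without ctrl mouse 6 and 1.17 without ctrl-GCV mouse 5. Medians of lists with low genes grew with 0.1 as the pseudocount and with the 1 FPKM minimum, to -0.721 and -0.779 for cornea and connective tissue, -0.438 and -0.447 for leukocytes and 2.471 and 2.145 for lens markers. With 0.1 as the pseudocount, pericyte (-0.227), nucleoside (-0.107), microglia (0.119) and red blood cell markers (0.351) passed 0.1 from 0 and endothelial markers were at 0.294, and with the minimum muscle markers were at -0.168 and microglia markers at 0.159. In each case the cause was not tested. The mouse as a block changed no other call. With 3 retinas per group and depths of at most 9050000 estimated fragments, the width of the intervals given sets what could be told apart.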

Other observations

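Haemoglobin genes were uneven in the uninjured retinas. Hbb-b1 was at 111, 83.3 and 57.3 FPKM in ctrl and at 121, 126 and 41.7 FPKM in ctrl-GCV retinas, while Hba-a2 was at 30.4 FPKM in the ctrl-GCV retina of mouse 2 and below 0.04 FPKM in the other 5, as was Hbb-bs, with 17.4 FPKM in that retina. These genes have near-identical copies, so their split is uncertain.

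The rows that varied most over the 6 retinas were, beside crystallins, those of microRNA genes and Xist. Mir719 was at 121, 0 and 327 FPKM in ctrl and at 0 in all ctrl-GCV retinas (log2 fold change -5.10, SE 1.96, adjusted p = 0.758), and Mir8104 and Mir8103 were above 0 in the ctrl retina of mouse 6 alone, at 574 and 566 FPKM. Xist was at 80.6 FPKM in the ctrl retina of mouse 6 and at 73.3 FPKM in the ctrl-GCV retina of mouse 5, and below 0.07 FPKM in the other 4, where the Y-linked Ddx3y was at 13.1 to 15.9 FPKM, so each group held 1 library of this kind. None of the 5 sex-linked genes tested was called.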
